A study of Mus musculus with 12 samples.

Results

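The 46 genes described here encode the machinery that starts autophagy, builds the autophagosome and fuses it with the lysosome. They were listed by symbol for their known roles, by a rule that uses no measured value, and each symbol matched 1 of the 55450 genes counted by RNA-seq. The cells were type II alveolar epithelial (AT2) cells, the surfactant-making cells of the alveolus, from young adult mice on a C57BL/6 background. All the mice carried a floxed AhR gene, which encodes the aryl hydrocarbon receptor, a ligand-activated transcription factor. AhRf/f mice had no Cre, and Sftpc-Cre;AhRf/f mice had Cre expressed from the surfactant protein C locus. The paper states that this gene may not be expressed in AT2 cells alone. After isolation the cells of each genotype were kept for 24 h in PBS or in 50 µg/ml of CRE, an extract of cockroach, which gave 4 groups of 3 libraries: PBS-treated AhRf/f, CRE-treated AhRf/f, PBS-treated Sftpc-Cre;AhRf/f and CRE-treated Sftpc-Cre;AhRf/f cells. The study asked whether AhR in AT2 cells governs the autophagy that the allergen induces, and the transcripts of the machinery bear on that question at the level of mRNA only.

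Autophagy is controlled largely through its proteins. When nutrients are plentiful the kinase mTOR, held by raptor, phosphorylates and silences the ULK complex, and AMPK does the reverse when energy is low. An active ULK complex switches on a class III phosphatidylinositol 3-kinase (PI3K), whose lipid product recruits WIPI proteins and lipid transfer proteins to the growing membrane. A pair of ubiquitin-like conjugation systems then attaches LC3 and GABARAP proteins to that membrane, and tethers and SNARE proteins finally join the closed vesicle to the lysosome. In AT2 cells the same lysosomal system serves the lamellar bodies that store surfactant.

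The libraries held 68878065 to 80935797 counts, and every one of the 46 genes was counted in every library, with between 288 and 16652 counts. All of them passed the filter on low counts, which left 20612 genes for testing. Expression is given as CPM, counts scaled to a common library size with TMM factors, for comparisons between libraries. For comparisons between genes it is given as FPKM, which divides by the merged length of all annotated exons of a gene. That length can exceed the length of the transcripts present, so ratios of FPKM between genes are approximate. Each of the 11 AT2 markers looked at was detected, with summed levels of 4667 to 9478 CPM, but the 5 club cell markers summed to 4020 to 8170 CPM and the 9 markers of type I (AT1) cells to 1899 to 3891 CPM, so the cultures held RNA of other epithelial cells or of AT2 cells expressing such genes. In bulk RNA, fewer cells of a type and less RNA per cell cannot be told apart. The 4 libraries numbered 1 carried more leukocyte RNA, with 6 markers summing to 427.7 to 502.5 CPM against 94.53 to 198.5 CPM in the 8 others. Ahr itself was counted at 42.9 to 56.2 CPM in AhRf/f cells and at 37.7 to 51.5 CPM in Sftpc-Cre;AhRf/f cells, and a count over the whole gene does not show the loss of an exon. Cyp1b1, a target of AhR, lay at 344 to 465 CPM in the first and at 31.8 to 63.9 CPM in the second.

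All 6 steps of the pathway were expressed, and most of their genes lay at moderate levels. The mean over 12 libraries ranged from 1.22 FPKM for Atg16l2 to 46.7 FPKM for Vmp1, and the median of the 46 genes was 5.59 FPKM, beside 2.16 FPKM for all genes tested. A mean above 10 FPKM was reached by 14 genes, 28 lay between 3 and 10 FPKM, and 4 lay below 3 FPKM. Those 4 were Tsc1, Atg10, Epg5 and Atg16l2. Vmp1, a lipid scramblase of the endoplasmic reticulum, and Atg3, the enzyme that passes LC3 to its lipid, overlapped at the top of the order, with 43.7 to 48.6 FPKM and 32.7 to 52.4 FPKM. The 44 other genes lay below the lowest library of Atg3. Atg101, a small partner that stabilizes Atg13, followed at 22.7 to 32.0 FPKM without overlapping Atg5 at 18.9 to 22.3 FPKM, and at the other end Atg16l2, at 0.980 to 1.36 FPKM, did not overlap the next gene, Epg5, at 1.97 to 2.67 FPKM. Length mattered to this order, since by CPM Atg101 ranked 24 and Atg5 ranked 20.

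**Figure D1:**
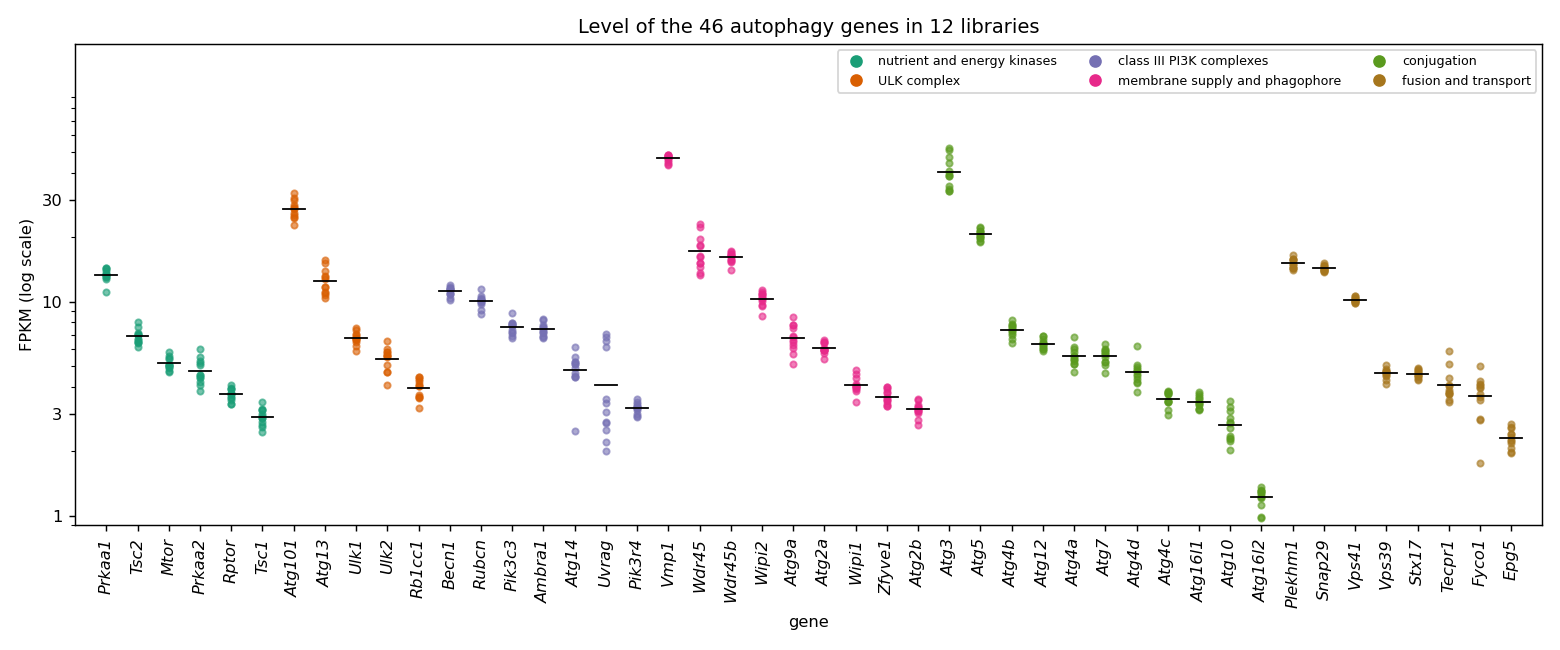
FPKM (log scale) of each of the 46 genes in the 12 libraries (points) with the mean over all 12 (line), ordered within the 6 steps. The genes span 1.22 to 46.7 FPKM on average, Vmp1 and Atg3 stand highest, and the points of Uvrag, Atg14 and Fyco1 are the most widely scattered.

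Among the nutrient and energy kinases, the catalytic AMPK subunit Prkaa1 was the most abundant at 13.3 FPKM, 2.40 to 3.13 times its paralogue Prkaa2 in every library. Tsc2, whose product restrains mTOR together with Tsc1, had 6.90 FPKM, Mtor had 5.15 FPKM, Rptor, which encodes the raptor scaffold, had 3.69 FPKM and Tsc1 had 2.90 FPKM. In the ULK complex the kinases Ulk1 (6.76 FPKM) and Ulk2 (5.42 FPKM) were close, with a ratio of 1.01 to 1.84. Atg13, the adaptor of the complex, had 12.5 FPKM, and the large scaffold Rb1cc1 had 3.94 FPKM, so that Atg101 exceeded Rb1cc1 by 5.85 to 8.72 times in all 12 libraries. By FPKM the members of 1 complex were thus far from equal. By CPM, which is not divided by length, Rb1cc1 (64.5 CPM) lay above Atg101 (48.4 CPM). Their merged exons hold 14690 and 1597 bases.

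In the class III PI3K complexes, the shared subunits Becn1 (11.2 FPKM), Pik3c3, the lipid kinase (7.61 FPKM), and Pik3r4 (3.19 FPKM) accompany either Atg14, which directs the complex to the forming autophagosome, or Uvrag, which directs it to endosomes. Atg14 had 4.82 FPKM and Uvrag 4.06 FPKM, and the ratio of Becn1 to Uvrag ran from 1.52 to 5.95 between libraries. The inhibitor Rubcn had 10.1 FPKM and Ambra1, which helps to activate the complex, had 7.44 FPKM. In the supply of membrane, the PI3P-binding proteins were led by Wdr45 (17.2 FPKM) and Wdr45b (16.1 FPKM), ahead of Wipi2 (10.3 FPKM) and Wipi1 (4.09 FPKM). The lipid scramblase Atg9a had 6.79 FPKM, the lipid transfer proteins Atg2a and Atg2b had 6.08 FPKM and 3.14 FPKM, and Zfyve1, a marker of the membrane where autophagosomes form, had 3.60 FPKM.

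In the conjugation systems Atg5, the acceptor of Atg12, had 20.6 FPKM. That was 2.72 to 3.69 times the FPKM of Atg12 and 5.36 to 6.79 times that of Atg16l1, with which the conjugate assembles. By CPM, which is not divided by length, Atg5 (54.1 CPM) and Atg12 (54.7 CPM) were close. Their merged exons hold 2352 and 7711 bases. The activating enzyme Atg7 had 5.59 FPKM and Atg10, which passes Atg12 to Atg5, had 2.66 FPKM. The cysteine proteases that trim and release LC3 were led by Atg4b (7.38 FPKM), ahead of Atg4a (5.59 FPKM), Atg4d (4.68 FPKM) and Atg4c (3.52 FPKM). Atg16l1 had 3.41 FPKM, 2.50 to 3.68 times its paralogue Atg16l2. For fusion, the adaptor Plekhm1 (15.1 FPKM) and the SNARE Snap29 (14.3 FPKM) were the most abundant, followed by the HOPS tether subunit Vps41 (10.2 FPKM). Vps39, another subunit of that tether (4.63 FPKM), the autophagosomal SNARE Stx17 (4.60 FPKM), Tecpr1 (4.10 FPKM), the transport adaptor Fyco1 (3.63 FPKM) and the tether Epg5 (2.31 FPKM) were lower.

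Across the 4 groups the machinery was steady. Group means spanned less than 1.25-fold for 40 of the 46 genes, compared with 67.9% of the 10508 tested genes in the same range of CPM, and the 6 others were Uvrag (2.19-fold), Fyco1 (1.62-fold), Wdr45 (1.49-fold), Atg3 (1.38-fold), Atg13 (1.35-fold) and Atg101 (1.29-fold). The within-group SD of log2 CPM had a median of 0.111 over the 46 genes and 0.158 over the tested genes in that range. Vmp1 lay between 192 and 214 CPM in all 12 libraries. The study followed Becn1 and Atg5 by RT-PCR in mouse lung tissue and human bronchial cells, not in these cultures. The paper reports more Atg5 by RT-PCR in lungs with CRE than with PBS. In human bronchial cells it reports more ATG5 and Beclin-1 by staining with CRE, and more still after knockdown of AhR. In lungs with CRE the paper reports more Beclin-1 in Sftpc-Cre;AhRf/f than in AhRf/f mice. It reports a similar pattern by staining of Beclin-1 and ATG5 in AT2 cells. In the present libraries Becn1 lay at 81.0, 96.0 and 92.4 CPM in AhRf/f cells with PBS and at 83.6, 94.0 and 87.2 CPM with CRE. In Sftpc-Cre;AhRf/f cells Becn1 lay at 87.0, 85.2 and 89.8 CPM with PBS and at 88.1, 89.9 and 83.0 CPM with CRE. Atg5 lay at 48.8, 59.7 and 56.7 CPM, 52.4, 57.1 and 53.0 CPM, 50.1, 56.9 and 53.6 CPM, and 48.9, 54.6 and 57.3 CPM in the same order. For both genes every group overlapped every other.

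**Figure D2:**
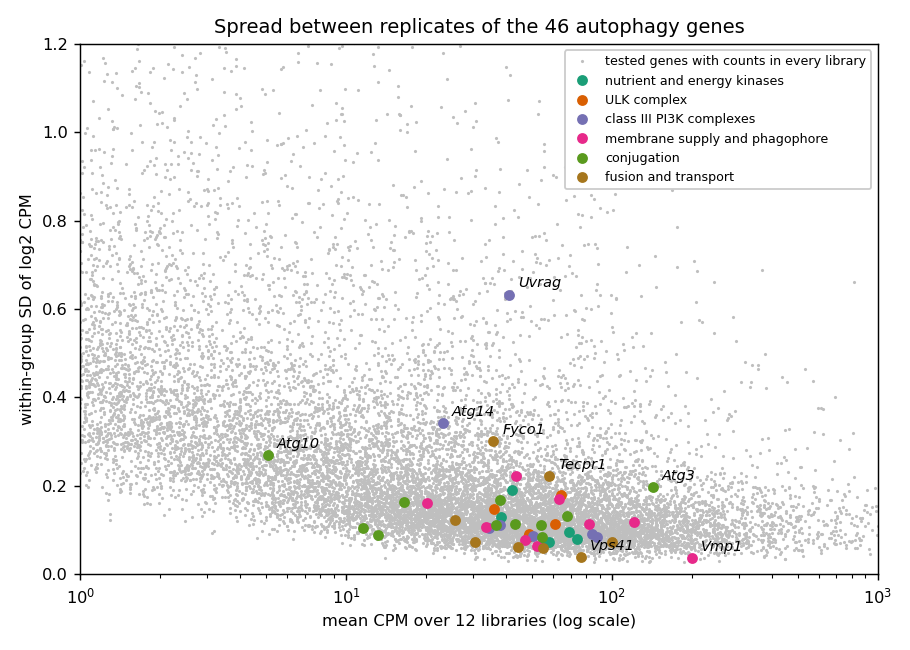
Within-group SD of log2 CPM against the mean CPM over 12 libraries (log scale) for the 46 genes (coloured by step) and for tested genes with counts in every library (grey, those beyond the axes not drawn). Most of the 46 genes lie low in the cloud, with a median of 0.111, while Uvrag lies far above the others.

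Uvrag was the exception among them. AhRf/f cells had 24.8, 20.6 and 70.0 CPM of Uvrag with PBS and 70.1, 35.9 and 63.1 CPM with CRE. Sftpc-Cre;AhRf/f cells had 29.6, 33.4 and 66.5 CPM with PBS and 26.4, 22.4 and 28.4 CPM with CRE. High and low libraries occurred within 3 of the 4 groups, and only the last group was low throughout. A larger within-group SD was found for 5.84% of the tested genes in the range of CPM of the machinery. Single libraries also stood apart for 2 genes named after their values were seen. Atg14 fell to 12.2 CPM in AhRf/f cells with CRE, replicate 2, beside 21.2 to 30.5 CPM in the 11 others, and Tecpr1 was highest in both libraries of Sftpc-Cre;AhRf/f cells numbered 1, at 81.0 CPM with PBS and 70.5 CPM with CRE, beside 49.5 to 61.6 CPM elsewhere.

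The first question was whether the allergen extract moved these transcripts. Under the quasi-likelihood test of edgeR, adjusted by Benjamini-Hochberg over all 20612 genes with a threshold of 0.05, none of the 46 genes was called in AhRf/f cells, where 0.233% of all genes were, and none in Sftpc-Cre;AhRf/f cells, where 0.262% were. DESeq2 also called 0 of them (1.98% and 1.23% of all genes), as did limma (0.243% and 0.296%). An unadjusted edgeR p under 0.05 was found for 4 genes in AhRf/f cells (Wdr45, Atg2b, Atg3 and Ulk2), with 9.36% of all genes, and for 1 gene, Wdr45, in Sftpc-Cre;AhRf/f cells, with 6.48%. The median log2 fold change of the 46 genes was 0.05 with 28 above 0 in AhRf/f cells, and -0.01 with 17 above 0 in Sftpc-Cre;AhRf/f cells, while 49.8% and 49.5% of all tested genes were above 0. The 95% interval lay within 0.5 of 0 on the log2 scale for 37 and 39 of the 46 genes, beside 33.7% and 36.0% of all genes. Such interval shares of all genes, here and below, were not matched for level. The median within-group SD of log2 CPM was 0.242 over the 17809 tested genes counted in every library. In the CPM range of the machinery it was 0.158. PBS and CRE libraries did not overlap for 10 genes in AhRf/f cells (16.5% of all genes) and for 6 in Sftpc-Cre;AhRf/f cells (11.8%). Exact permutation of 3 libraries against 3 allows no p smaller than 0.1 for any one gene.

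**Figure D3:**
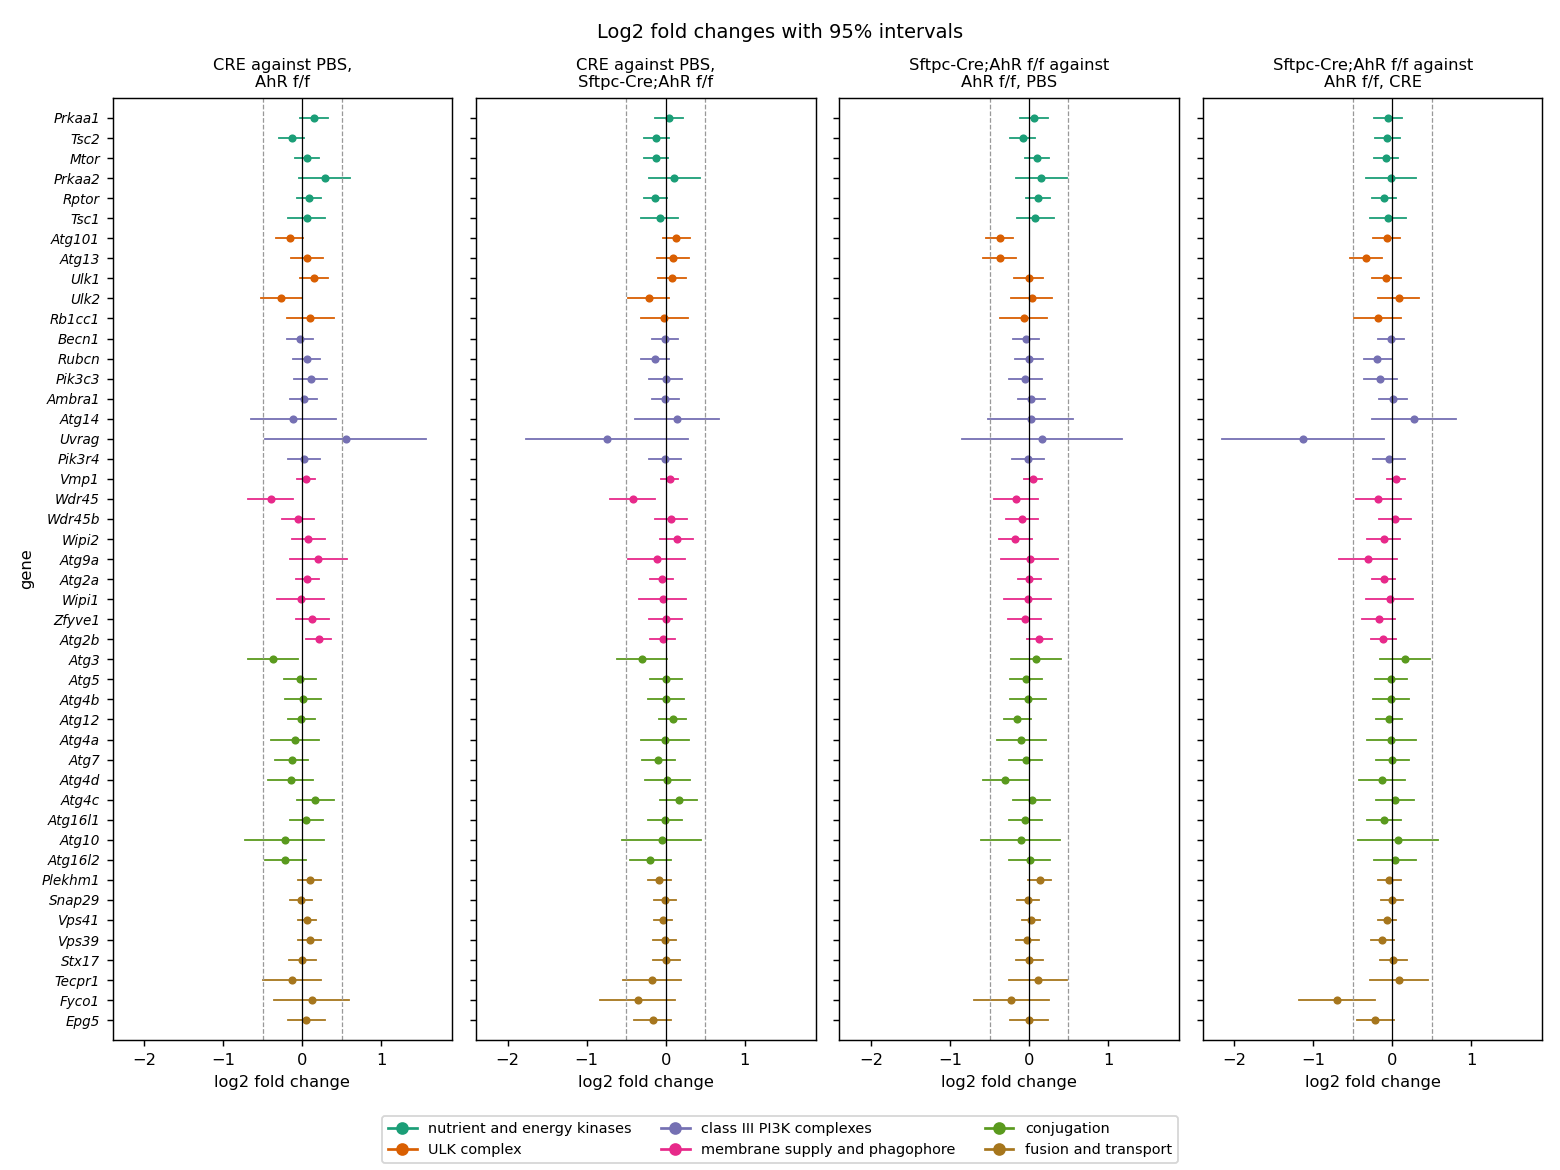
Log2 fold change (points) with 95% interval (lines) of the 46 genes in the 4 comparisons, coloured by step; dashed lines mark 0.5 above and below 0. Most intervals are narrow and cross 0, Wdr45 and Atg3 lie to the left in both CRE comparisons, Atg13 lies to the left in both genotype comparisons, and Uvrag has the widest interval in each.

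The labels name no pairs, but within a genotype the deviations of PBS and CRE libraries of the same number correlated at 0.325 to 0.729. Those of unlike number correlated at -0.598 to 0.0327 there, and reached 0.361 between genotypes. With the number taken as a pair in the model 2 genes were called, Atg3 in AhRf/f cells and both Wdr45 and Atg3 on average over genotypes. Wdr45 encodes a PI3P-binding WIPI protein needed for the growth of the autophagosome, and Atg3 the last enzyme of LC3 lipidation. Both were lower with CRE in all 6 pairs of libraries, but so were Ulk2, Atg16l2 and Tecpr1. Wipi2, Vmp1 and Atg4c were higher with CRE in all 6. The share of all genes with 6 pairs in 1 direction is not given, here or below. The pairing raised the number of genes called throughout the genome as well, to 3.63% in AhRf/f cells, 2.13% in Sftpc-Cre;AhRf/f cells and 6.59% for the average over genotypes, where the unpaired test called 1.10%. That unpaired average gave an unadjusted p under 0.05 for 5 of the 46 genes, with 11.1% of all genes in either direction. These were Wdr45, Atg3, Ulk2, Tsc2 and Atg16l2, all lower with CRE. The interval of that average lay within 0.5 of 0 for 43 genes, with 45.3%.

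Wdr45 lay at 58.9, 86.8 and 83.5 CPM in AhRf/f cells with PBS and at 55.0, 61.7 and 57.1 CPM with CRE. In Sftpc-Cre;AhRf/f cells it lay at 65.9, 66.0 and 73.0 CPM with PBS and at 47.8, 53.6 and 52.1 CPM with CRE. The groups overlapped in the first genotype, through the PBS library numbered 1, and did not overlap in the second. The log2 fold change was -0.40 (SE 0.13) and -0.42 (SE 0.13), with edgeR adjusted p of 0.342 and 0.459, and 0.0816 and 0.0868 with pairing. Averaged over genotypes Wdr45 fell by 0.41 on the log2 scale (SE 0.09), or by 24.6%, with an adjusted p of 0.0689 in edgeR without pairing and of 0.0160 with it. Without the AhRf/f PBS library numbered 1, the fall of Wdr45 in AhRf/f cells was called unpaired, at -0.56 (edgeR adjusted p = 0.0458). Its exons share 818 bases with Gm45208 on the same strand, a gene at 1.28 to 3.59 CPM, so a small part of the reads may be assigned to either.

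Atg3 lay at 133.1, 159.4 and 169.4 CPM in AhRf/f cells with PBS and at 112.8, 124.7 and 120.3 CPM with CRE. In Sftpc-Cre;AhRf/f cells the values were 131.2, 176.0 and 184.8 CPM with PBS and 111.8, 139.6 and 148.2 CPM with CRE. All CRE libraries lay below all PBS libraries in the first genotype, while in the second the libraries numbered 1 were low in both treatments and the groups overlapped. The log2 fold change was -0.37 (SE 0.14) in AhRf/f cells, with an edgeR adjusted p of 0.449 that became 0.0224 with pairing, and -0.30 (SE 0.14) in Sftpc-Cre;AhRf/f cells, with 0.807 and 0.0535. The second value narrowed to -0.19 without Sftpc-Cre;AhRf/f CRE replicate 1. Averaged over genotypes the fall was 0.33 (SE 0.10), or 20.7%, with an adjusted p of 0.210 unpaired and 0.00485 paired by edgeR. DESeq2 called both Wdr45 (adjusted p = 0.00217) and Atg3 (adjusted p = 0.0490) for the average without pairing, beside 3.59% of all genes.

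Epithelial markers moved with the same treatment. Of the 9 AT1 markers, all were lower with CRE on average over genotypes and 3 were called by edgeR, Ager, Rtkn2 and Clic5, with a median log2 fold change of -0.45 over the list. Their summed level was 2695 to 3466 CPM with PBS and 1899 to 2403 CPM with CRE in AhRf/f cells, and 2899 to 3891 CPM with PBS and 2213 to 2813 CPM with CRE in Sftpc-Cre;AhRf/f cells. None of the AT1 markers was at 0. EdgeR also called 1 of the 11 AT2 markers, Etv5, which fell by 0.47 on the log2 scale (adjusted p = 0.0185), and 1 of the 5 club cell markers, Aldh1a7, which rose by 0.76 (adjusted p = 0.0396), while the medians of these lists were -0.0713 and -0.0486. The part of these shifts in the values of Wdr45 and Atg3 was not tested.

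**Figure D4:**
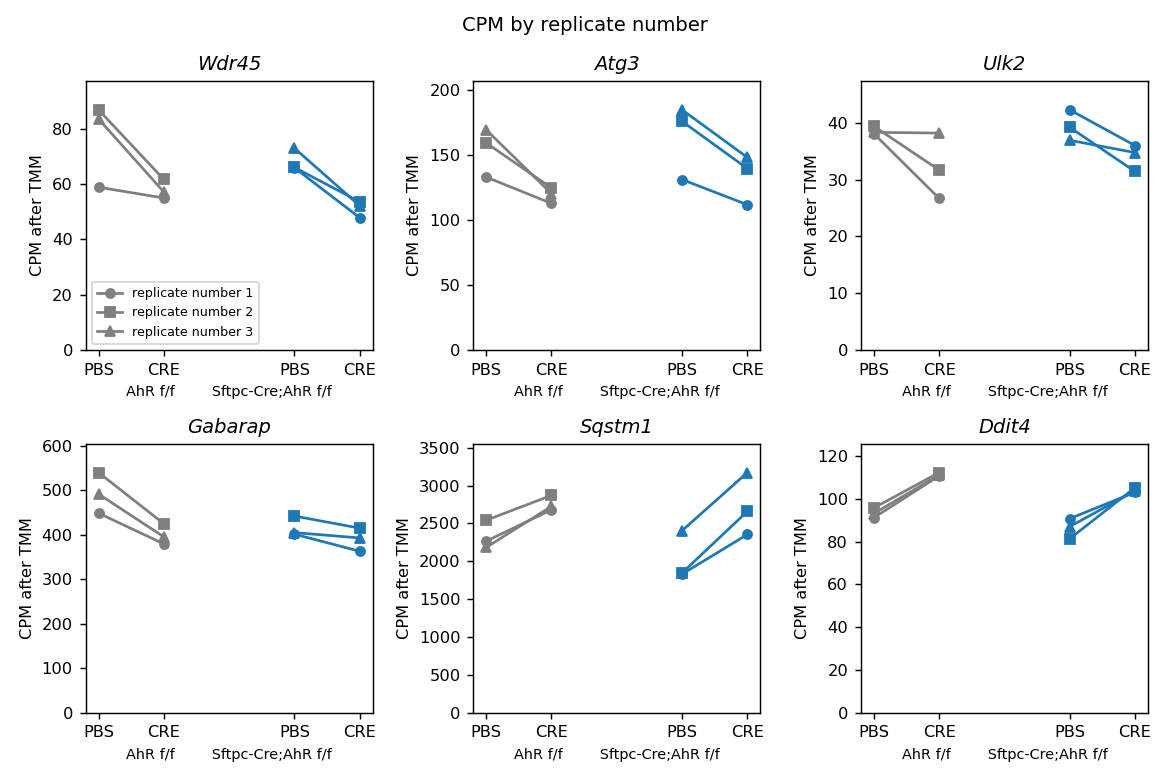
CPM after TMM of Wdr45, Atg3 and Ulk2 and of 3 other genes of the pathway, Gabarap, Sqstm1 and Ddit4, in PBS and CRE libraries joined by replicate number, for each genotype. All 6 lines fall for Wdr45, Atg3, Ulk2 and Gabarap, and all 6 rise for Sqstm1 and Ddit4.

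Other genes near the head of the list moved by less. Atg2b, a lipid transfer protein, lay at 47.3, 40.8 and 42.6 CPM with PBS and 48.5, 52.9 and 49.6 CPM with CRE in AhRf/f cells, a log2 fold change of 0.21 (SE 0.07, edgeR adjusted p = 0.397) without overlap. In Sftpc-Cre;AhRf/f cells it lay at 50.6, 46.2 and 46.3 CPM with PBS and 46.2, 45.6 and 47.8 CPM with CRE, which overlapped. Ulk2, singled out after its values were seen, was lower with CRE in all 6 pairs, by 0.24 on average over genotypes (SE 0.08), but its adjusted p in edgeR was 0.292 unpaired and 0.108 paired. Prkaa1, the AMPK subunit, lay at 68.9, 58.6 and 68.8 CPM with PBS and 73.4, 69.9 and 75.2 CPM with CRE in AhRf/f cells, without overlap, and at 69.4, 66.2 and 69.4 CPM against 67.9, 66.1 and 76.8 CPM in Sftpc-Cre;AhRf/f cells, with overlap. Neither difference of Prkaa1 passed the test, with edgeR adjusted p of 0.604 and 1.0.

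Rptor had opposite signs in the genotypes. It lay at 52.6, 53.4 and 54.8 CPM with PBS and 54.5, 56.3 and 60.0 CPM with CRE in AhRf/f cells, and at 59.6, 58.1 and 56.2 CPM against 57.3, 50.0 and 51.6 CPM in Sftpc-Cre;AhRf/f cells. PBS and CRE libraries of Rptor overlapped in both. The log2 fold changes of 0.09 (SE 0.07) and -0.13 (SE 0.07) had edgeR adjusted p of 0.778 and 0.836. Plekhm1, the most abundant of the fusion genes by FPKM, lay at 94.2, 97.6 and 94.5 CPM with PBS and 97.8, 106.5 and 101.7 CPM with CRE in AhRf/f cells, and at 101.4, 102.2 and 110.8 CPM against 93.0, 97.4 and 107.7 CPM in Sftpc-Cre;AhRf/f cells. The treatments were just apart in the first genotype and overlapped in the second, and neither comparison of Plekhm1 passed (edgeR adjusted p = 0.742 and 0.999).

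The second question was whether cells of Sftpc-Cre;AhRf/f mice differed from AhRf/f cells. None of the 46 genes was called by edgeR with PBS, where 0.150% of all genes were, nor with CRE, where 0.170% were. Unadjusted p values under 0.05 were found for 3 genes with PBS (Atg13, Atg101 and Atg4d), with 8.37% of all genes, and for 4 with CRE (Atg13, Uvrag, Rubcn and Fyco1), with 5.95%. All of these were lower in Sftpc-Cre;AhRf/f cells, while these shares of all genes cover both directions. Limma called 0 in either (0.175% and 0.184% of all genes), whereas DESeq2 called 2 with PBS, Atg13 (adjusted p = 0.0469) and Atg101 (adjusted p = 0.00529), beside 1.18% of all genes, and 0 with CRE, beside 0.844%. The median log2 fold change was -0.01 with PBS and -0.05 with CRE, with 20 and 11 of the 46 genes above 0, beside 49.9% and 49.2% of all genes, and the sign of the first depended on 1 library (0.000352 without AhRf/f PBS replicate 3). The genotypes did not overlap for 6 genes with PBS (14.0% of all genes) and 7 with CRE (11.0%), and 39 and 40 of the 46 intervals lay within 0.5 of 0, beside 34.8% and 36.2%.

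Atg13, the regulatory adaptor through which mTOR controls the ULK kinases, was the gene called for the average over treatments. Its CPM were 62.8, 75.1 and 63.0 in AhRf/f cells with PBS and 48.8, 52.4 and 54.0 in Sftpc-Cre;AhRf/f cells with PBS. With CRE they were 63.0, 77.1 and 69.2 in AhRf/f cells and 55.1, 57.1 and 53.8 in Sftpc-Cre;AhRf/f cells. Every library of Sftpc-Cre;AhRf/f cells lay below every library of AhRf/f cells in both treatments. The log2 fold change was -0.37 (SE 0.09, edgeR adjusted p = 0.256) with PBS and -0.33 (SE 0.09, edgeR adjusted p = 0.478) with CRE, and the average of -0.35 (SE 0.07), a fall by 21.7%, had an adjusted p of 0.0424 in edgeR, beside 0.631% of all genes called. An unadjusted p under 0.05 for that average was found for 4 genes, Atg13, Atg101, Atg4d and Fyco1, with 9.93% of all genes, DESeq2 called Atg13 and Atg101, with 2.53%, and 43 of the 46 intervals lay within 0.5 of 0, with 45.4%. That average counts the PBS and CRE libraries of 1 number as separate, although their deviations correlated. With the counts of each such pair summed, 3 sums against 3, the value for Atg13 was -0.36 with an edgeR adjusted p of 0.535, and 0.0805% of genes were called. The call was also lost when any 1 of 11 libraries was left out (adjusted p = 0.0659 to 0.128) and held only without AhRf/f CRE replicate 1 (adjusted p = 0.0356). Without the 4 libraries numbered 1 the value was -0.39 with an adjusted p of 0.171.

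Atg101, the partner of Atg13, was lower with PBS. It lay at 53.2, 58.2 and 53.8 CPM in AhRf/f cells and at 42.5, 39.8 and 45.6 CPM in Sftpc-Cre;AhRf/f cells with PBS, and at 47.8, 48.8 and 51.2 CPM against 45.1, 44.6 and 50.7 CPM with CRE. The genotypes were apart with PBS and overlapped with CRE. The log2 fold change of -0.37 (SE 0.08) with PBS had an edgeR adjusted p of 0.155, and that of -0.07 (SE 0.08) with CRE had 1.0. With PBS this was close to the difference of Atg13, while Ulk1, Ulk2 and Rb1cc1, the 3 other members of the ULK complex, differed by between -0.07 and 0.03. The differences between these genes were not tested.

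Markers of other cell types also differed in direction between the genotypes. On average over treatments all 6 ciliated cell markers were higher in Sftpc-Cre;AhRf/f cells, with a median log2 difference of 0.54, and all 6 neutrophil markers were lower, with a median of -1.21. Of the 11 AT2 markers 9 were lower, with a median of -0.159. EdgeR called none of these markers. The summed level of the ciliated markers was 130.6 to 174.8 CPM in AhRf/f cells and 171.9 to 282.9 CPM in Sftpc-Cre;AhRf/f cells with PBS, and 117.8 to 173.0 CPM against 176.7 to 285.3 CPM with CRE, where the genotypes did not overlap. The neutrophil markers summed to 4.88 to 32.8 CPM against 2.48 to 11.8 CPM with PBS and to 8.47 to 29.1 CPM against 1.69 to 10.8 CPM with CRE. The AT2 markers summed to 7924 to 8889 CPM against 4667 to 9080 CPM with PBS and to 6960 to 7647 CPM against 4856 to 9478 CPM with CRE. None of these markers was at 0 in every library, and their part in the differences between genotypes was not tested.

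**Figure D5:**
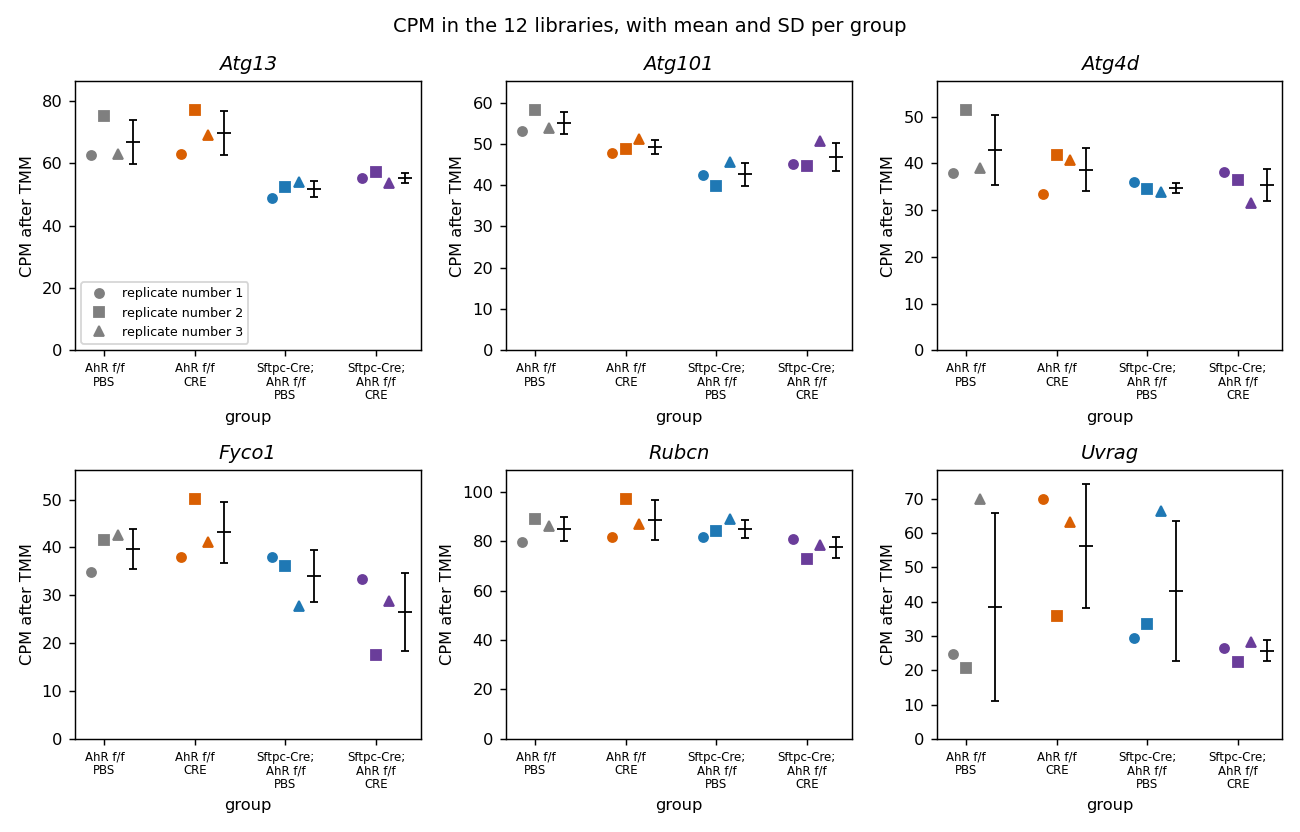
CPM after TMM of 6 genes in the 12 libraries (points, by replicate number) with the mean and SD of each group (bars). Atg13 is lower in every library of Sftpc-Cre;AhRf/f cells, Atg101 only with PBS, and the widely spread values of Uvrag are low throughout in Sftpc-Cre;AhRf/f cells with CRE alone.

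With CRE, the largest differences were those of Uvrag and Fyco1, the 2 genes that met the study's own rule for a differentially expressed gene, an unadjusted limma p under 0.05 and an absolute log2 fold change above 0.5, as did 3.42% of all genes. For Uvrag the difference was -1.13 (SE 0.47, edgeR adjusted p = 0.810), from the libraries given above, and the genotypes did not overlap. Fyco1, the adaptor that carries autophagosomes along microtubules, lay at 38.1, 50.2 and 41.1 CPM in AhRf/f cells with CRE and at 33.4, 17.5 and 28.8 CPM in Sftpc-Cre;AhRf/f cells with CRE, also without overlap. With PBS the values of Fyco1 were 34.8, 41.6 and 42.6 CPM against 38.0, 36.2 and 27.8 CPM, which overlapped. Its difference with CRE was -0.70 (SE 0.22, edgeR adjusted p = 0.620), and it narrowed to -0.46 without the lowest library, replicate 2 of Sftpc-Cre;AhRf/f cells with CRE, without which neither gene met the rule. No gene of the machinery met the study's rule for CRE in AhRf/f cells (4.11% of all genes), for CRE in Sftpc-Cre;AhRf/f cells (3.38%) or for the genotypes with PBS (4.10%).

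Rubcn, the inhibitor of the PI3K complex, lay at 81.5, 97.2 and 86.9 CPM in AhRf/f cells with CRE and at 80.9, 72.8 and 78.4 CPM in Sftpc-Cre;AhRf/f cells with CRE. The groups did not overlap, but the gap was less than 1 CPM and the log2 fold change of -0.19 (SE 0.08) had an edgeR adjusted p of 0.798, and narrowed to -0.12 without AhRf/f CRE replicate 2. Rubcn with PBS lay at 79.7, 88.9 and 86.2 CPM against 81.6, 84.2 and 88.9 CPM. Atg4d, an LC3 protease, lay at 38.0, 51.5 and 39.0 CPM in AhRf/f cells with PBS and at 36.0, 34.5 and 33.9 CPM in Sftpc-Cre;AhRf/f cells with PBS, without overlap, a difference of -0.30 (SE 0.13, edgeR adjusted p = 0.577) that narrowed to -0.14 without AhRf/f PBS replicate 2, the highest library. With CRE the values of Atg4d were 33.5, 41.8 and 40.8 CPM against 38.1, 36.5 and 31.5 CPM and overlapped. The 1405 bases that its exons share with Kri1 lie on the opposite strand.

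The response to CRE was not shown to differ between genotypes for any gene of the machinery. The interaction called 0 of the 46 genes by edgeR (0.0% of all genes) and by DESeq2 (0.112%). Limma also called 0 of them, and its share of all genes is not given. An unadjusted edgeR p under 0.05 was found for 3 genes, Atg101, Atg2b and Rptor, with 3.70% of all genes. The interval of the difference lay within 0.5 of 0 for 33 of the 46 genes, beside 23.9% of all genes, and for Becn1 and Atg5 it ran from -0.21 to 0.25 and from -0.26 to 0.31 on the log2 scale.

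The other genes of the pathway were described from a list of 72 partners, inputs and cargo receptors, all of which were tested. None was called by edgeR in the 4 comparisons, where an unadjusted p under 0.05 was found as follows. The shares of all genes beside these counts cover both directions, and none is given for lower genes alone. For CRE there were 12 in AhRf/f cells, 11 of them lower with CRE, beside 9.36% of all genes, and 5 in Sftpc-Cre;AhRf/f cells, 1 of them lower, beside 6.48%. Between genotypes there were 14 with PBS, all 14 lower in Sftpc-Cre;AhRf/f cells, beside 8.37% of all genes, and 3 with CRE, 1 of them lower, beside 5.95%. Averaged over genotypes 1 was called with CRE (1.39%, beside 1.1% of all genes), Ddit4, an inhibitor of mTOR signalling. Ddit4 rose from 91.2, 95.8 and 93.2 CPM to 110.8, 112.3 and 111.2 CPM in AhRf/f cells and from 90.8, 81.4 and 87.1 CPM to 103.1, 105.3 and 103.7 CPM in Sftpc-Cre;AhRf/f cells. All 6 pairs rose without overlap, by 0.26 on the log2 scale (SE 0.04, edgeR adjusted p = 0.00803). For CRE, DESeq2 called 2 of the 72 in AhRf/f cells (2.78%, beside 1.98% of all genes) and 1 in Sftpc-Cre;AhRf/f cells (1.39%, beside 1.23%). It called none between genotypes with PBS or with CRE. For the CRE average DESeq2 called 5 (6.94%, beside 3.59%), and for the genotype average 2 (2.78%, beside 2.53%).

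With pairing, edgeR called 5 of the 72 genes (6.94%) in AhRf/f cells, where it called 3.63% of all genes, and 4 (5.56%) in Sftpc-Cre;AhRf/f cells, where it called 2.13%. Sqstm1, the cargo receptor p62, rose in both, from 2266, 2542 and 2183 CPM to 2680, 2871 and 2726 CPM and from 1831, 1847 and 2405 CPM to 2354, 2660 and 3172 CPM. Its paired log2 fold changes were 0.25 (adjusted p = 0.0284) and 0.43 (adjusted p = 0.00483). The stress-induced mTOR inhibitor Sesn2 rose by 0.28 (adjusted p = 0.0267) and 0.29 (adjusted p = 0.0275), and Ddit4 also passed in both. The unpaired value of Sesn2 in Sftpc-Cre;AhRf/f cells, 0.295, ran from 0.0885 without CRE replicate 3 to 0.475 without PBS replicate 3, and was 0.195 without PBS replicate 1. Gabarap, an LC3 relative that Atg3 conjugates, fell by 0.30 (adjusted p = 0.0123) and Vamp8, the lysosomal SNARE, fell by 0.33 (adjusted p = 0.00436) in AhRf/f cells, while Sesn3 fell by 0.25 (adjusted p = 0.0326) in Sftpc-Cre;AhRf/f cells.

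All 5 LC3 and GABARAP genes were lower in Sftpc-Cre;AhRf/f cells with PBS, with a median log2 fold change of -0.27 where all tested genes had -0.0010, and none was called. Map1lc3a had the largest difference of the family. It lay at 94.7, 105.8 and 95.2 CPM in AhRf/f cells and at 66.0, 77.1 and 75.3 CPM in Sftpc-Cre;AhRf/f cells, without overlap, at -0.44 (SE 0.12, edgeR adjusted p = 0.308). With CRE the median of the family was -0.16. For CRE in AhRf/f cells 1 of the 72 partners met the study's rule (1.39%, beside 4.11% of all genes). None met it for CRE in Sftpc-Cre;AhRf/f cells or between genotypes with PBS. The study's rule was met by 2 genes of the list (2.78%, beside 3.42% of all genes) with CRE between genotypes, Calcoco2, a receptor for bacteria and mitochondria, and Prkag3, an AMPK subunit. Both were scarce, with 0.00 to 0.648 CPM for Calcoco2 and 0.282 to 0.924 CPM for Prkag3, and neither was called by edgeR (adjusted p = 0.786 and 0.632). With CRE, Calcoco2 lay at 0.00, 0.15 and 0.15 CPM in AhRf/f cells and at 0.65, 0.46 and 0.34 CPM in Sftpc-Cre;AhRf/f cells. These did not overlap, and the log2 fold change was 2.29. By RT-PCR the paper reports more Calcoco2 in CRE-treated AT2 cells of its knockout mice. It reports the same direction by staining of AT2 cells in lung tissue.

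RefSeq gives a promoter window of 250 bases before to 50 after the start for 38 of the 46 genes. The core of the site bound by AhR, GCGTG on either strand, occurs in the windows of 71.1% of these 38 genes, beside 35.2% of all genes with a window and 51.4% of the 13100 tested ones. The palindrome CACGTG, which is the heart of the sites read by the lysosomal regulator TFEB, occurs in 13.2% of the 38 genes, beside 8.1% of all genes and 10.8% of the tested ones. The windows of the 4 genes that were called in any test above are shown, so that the matches can be seen beside their values. Capitals mark GCGTG, its reverse complement CACGC, or CACGTG; the build is GRCm38.p6 and all are written 5′ to 3′ on the strand of the gene. Atg13 is on the minus strand at chr2:91710543-91710842, Atg101 on the plus strand at chr15:101284051-101284350, Atg3 on the plus strand at chr16:45158579-45158878 and Wdr45 on the plus strand at chrX:7722677-7722976.
Atg13: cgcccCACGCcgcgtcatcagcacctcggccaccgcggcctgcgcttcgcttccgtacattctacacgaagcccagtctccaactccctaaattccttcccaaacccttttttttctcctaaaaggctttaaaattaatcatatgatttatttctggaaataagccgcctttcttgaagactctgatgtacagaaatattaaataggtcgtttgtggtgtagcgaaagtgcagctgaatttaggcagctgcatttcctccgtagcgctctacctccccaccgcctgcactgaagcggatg
Atg101: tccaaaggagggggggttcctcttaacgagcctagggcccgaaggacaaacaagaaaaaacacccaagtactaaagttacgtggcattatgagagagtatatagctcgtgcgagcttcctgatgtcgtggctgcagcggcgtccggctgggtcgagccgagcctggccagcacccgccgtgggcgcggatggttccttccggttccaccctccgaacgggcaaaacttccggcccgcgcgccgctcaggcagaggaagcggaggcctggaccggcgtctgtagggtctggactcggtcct
Atg3: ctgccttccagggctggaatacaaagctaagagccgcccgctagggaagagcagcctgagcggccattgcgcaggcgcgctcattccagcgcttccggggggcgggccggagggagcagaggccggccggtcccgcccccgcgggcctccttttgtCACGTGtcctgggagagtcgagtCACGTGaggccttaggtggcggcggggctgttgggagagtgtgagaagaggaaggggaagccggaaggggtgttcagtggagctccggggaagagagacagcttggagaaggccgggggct
Wdr45: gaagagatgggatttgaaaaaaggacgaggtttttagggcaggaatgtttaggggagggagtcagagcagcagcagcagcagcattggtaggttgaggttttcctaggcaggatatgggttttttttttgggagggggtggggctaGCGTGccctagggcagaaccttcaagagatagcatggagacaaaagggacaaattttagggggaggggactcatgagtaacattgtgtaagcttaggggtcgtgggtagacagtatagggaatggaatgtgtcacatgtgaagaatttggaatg
The window of Atg13, the gene lower in Sftpc-Cre;AhRf/f cells, holds 1 match to the AhR core near its upstream end, and that of Atg101 holds none. The window of Atg3 holds 2 copies of CACGTG, and that of Wdr45 holds 1 match to the AhR core. This window of Wdr45 lies inside the gene as annotated for the counts, which starts at chrX:7714333. No window at that start was read. A match of letters is a description of these windows and not a bound site.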

How the data were processed

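The authors prepared stranded mRNA libraries, aligned reads to GRCm38 with STAR 2.7.2b and obtained gene counts with Salmon, per the labels and the methods. The deposited counts are raw and whole, and how they were rounded is not given in the sources used here. The deposited FPKM were made by the authors from those counts, and match GENCODE M21 exon lengths, as do the gene IDs. CPM and all tests were computed from the counts. TMM normalization, filterByExpr (minimum count 10) and the quasi-likelihood test used edgeR 4.0.16 under R 4.3.3, with 1 fit of 4 group means to 12 libraries and Benjamini-Hochberg adjustment at 0.05. The study's rule was applied with limma 3.58.1 (limma-trend, prior count 2), and DESeq2 1.42.0 was an alternative. Intervals are 95% from the edgeR SE. A library with no count could hold up to 3 counts, or 0.0371 to 0.0436 CPM, for counting error alone. Nothing in the labels says whether replicates were separate mice, so p values measure the spread between these libraries.

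Pairing was judged from each library's deviations from its group mean over 14543 genes. Libraries of the same number correlated at 0.729, 0.418 and 0.651 between PBS and CRE in AhRf/f cells and at 0.589, 0.542 and 0.325 in Sftpc-Cre;AhRf/f cells, all above 0.1, so CRE responses were also fitted with pairing within genotype. Genes printed for every library were those called by edgeR, those meeting the study's rule, the 3 with the smallest unadjusted p in each comparison, the most abundant of each step, Atg5 and Becn1. The rule for the 46 genes uses no measured value, but they and the other lists were chosen when earlier results of these data were known. Scripts were tested on simulated data.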

Additional observations from a re-analysis of the deposited data

Results flagged for a closer look

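For 3 genes of the machinery the response to CRE differed between genotypes at an unadjusted p under 0.05 in edgeR's interaction test, and for none of them after Benjamini-Hochberg adjustment over 20612 genes (adjusted p = 1.0 for each). Atg101 had the difference 0.295 on the log2 scale (SE 0.11, unadjusted p = 0.0208 in edgeR), being lower with CRE in all 3 pairs of AhRf/f libraries and higher in all 3 pairs of Sftpc-Cre;AhRf/f libraries. Atg2b had the difference -0.245 (SE 0.10, unadjusted p = 0.0392 in edgeR), with all 3 pairs higher in AhRf/f cells and 1 of 3 higher in Sftpc-Cre;AhRf/f cells. Rptor had the difference -0.218 (SE 0.10, unadjusted p = 0.0439 in edgeR), with all 3 pairs higher in AhRf/f cells and all 3 lower in Sftpc-Cre;AhRf/f cells. With pairing in the model edgeR called none of the 46 genes either, with an adjusted p of 0.494 for Atg101, and 3.70% of all tested genes had an unadjusted p under 0.05 in the unpaired interaction.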

How the results depend on the processing

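None of the genes of the machinery or of the 72 partners that edgeR called, paired or unpaired, changed sign in that comparison under the alternatives run. Ddit4 averaged over genotypes lost its call only without the libraries numbered 1 (edgeR adjusted p = 0.081). Pairing the PBS and CRE libraries with a replicate block within genotype called 1 gene in AhRf/f cells (Atg3) and 2 for CRE averaged over genotypes (Wdr45 and Atg3). Between genotypes the labels link libraries by number alone. Those of the same number correlated at 0.42, 0.0416 and 0.106 with PBS and at 0.413, -0.0286 and 0.0867 with CRE. The libraries numbered 1, which carried more leukocyte RNA in both genotypes, gave the 0.42 and the 0.413. A replicate block across all groups kept the call of Atg13 (adjusted p = 0.0162 in edgeR) and called 2 genes for the CRE average. It gave 1 gene by the study's rule for CRE in AhRf/f cells. For the CRE average DESeq2 called 2, library size alone 1, a filter of 1 CPM in 3 libraries 1 and the fit without the 4 libraries numbered 1, chosen after seeing the data, 2. For the genotype average DESeq2 called 2, and no filter, the summed pairs, also chosen after seeing the data, and the fit without the libraries numbered 1 called 0. DESeq2 called 2 for the genotypes with PBS. Without the libraries numbered 1 the study's rule gave 2 genes for CRE in AhRf/f cells and 1 for the genotypes with CRE, and the median of the interaction was -0.0711; with Benjamini-Hochberg adjustment that rule gave 0 for the genotypes with CRE. The cause of these changes was not tested. The share of all genes called is given above for DESeq2, the pairing within genotype and the summed pairs. For the other fits, also those below without 1 library, it is not given. Their counts can thus not be set against all genes.

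Leaving out 1 library at a time, genes called ranged from 0 to 1 for CRE in AhRf/f cells and from 0 to 1 for the CRE average, 1 in both without AhRf/f PBS replicate 1, and from 0 to 1 for the genotype average, where the call held only without AhRf/f CRE replicate 1. By the study's rule they ranged from 0 to 1 for CRE in AhRf/f cells (1 without AhRf/f PBS replicate 1 or 3), 0 to 1 for CRE in Sftpc-Cre;AhRf/f cells (1 without its CRE replicate 1), 0 to 1 for the genotypes with PBS (1 without AhRf/f PBS replicate 3) and 0 to 2 for the genotypes with CRE, 0 without Sftpc-Cre;AhRf/f CRE replicate 2, 2 without AhRf/f CRE replicate 2 and 1 without each of the other four libraries compared. The median log2 fold change ranged from -0.0119 to 0.0613 for CRE in AhRf/f cells, the lowest without AhRf/f CRE replicate 2, and from -0.053 to -0.00806 for CRE in Sftpc-Cre;AhRf/f cells, the lowest without CRE replicate 3. For the genotypes it ranged from -0.0267 to 0.000352 with PBS, where library size alone gave 0.0271, and from -0.0863 to -0.0344 with CRE. The 46 genes had at least 288 counts in each library.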
